A study of Homo sapiens with 2 samples.

Results

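The replication-dependent histone genes were followed in RNA that came down with the RNA-binding protein IMP1 in T47D cells. Members were all genes of the deposited table whose symbol starts with HIST1H, HIST2H, HIST3H or HIST4H, which gave 72 of 18781 genes. By the histone class in the symbol these were 5 genes of H1, 15 of H2A, 24 of H2B, 16 of H3 and 12 of H4. RefSeq classed 63 of them as protein-coding and 9 as pseudogenes. The family was selected on its FPKM in these same libraries, which was already known to be higher with the anti-IMP1 antibody than with IgG, so the contrast between the libraries is described here and not tested.

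T47D is an established human cell line of luminal breast cancer, and the cells were wild type (WT). The protein IMP1 binds RNA and regulates the localization, stability and translation of its bound RNAs. In RNA immunoprecipitation (RIP), lysate is held with antibody-coated beads, the beads are washed, and the RNA that stays on them is sequenced. The study's libraries come from protein A beads carrying an anti-IMP1 antibody and from beads carrying normal IgG, which measures the background of the assay. The pair was made to ask which RNAs, lncRNAs above all, associate with IMP1. With 1 library per antibody, no difference given here has a replicate check. Levels are in FPKM, the fragments of a transcript relative to its length and to the total sequenced. How many fragments were sequenced is unknown, and whether poly(A)+ RNA was selected is not given in the sources used here.

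Core histones H2A, H2B, H3 and H4 form the nucleosome, and H1 is the linker histone that binds the DNA between nucleosomes. Most of these proteins are made in S phase from short intronless genes that lie in dense clusters, and their mRNAs end in a conserved stem-loop in place of a poly(A) tail. SLBP binds that stem-loop, the U7 snRNP directs the cut behind it, and the mRNAs are degraded when DNA replication stops. Replication-independent histones, such as those encoded by H2AFZ, H3F3A and H3F3B, are made from single genes with polyadenylated mRNAs.

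The classes differ in the short motifs in front of their genes, so 1 promoter per class is shown, that of the member with the highest anti-IMP1 level. The promoter of HIST3H2A, the member with the smallest ratio, is shown beside them. The sequences are those of RefSeq (GRCh38.p14), from 250 bases before to 50 bases after the start of the gene, written 5′ to 3′ on the strand of the gene. Capitals mark, on either strand, the TATA box letters TATAAA, the letters CCAAT that NF-Y binds, and the octamer ATTTGCAT that POU2F1 binds. In the window of HIST1H2AE, TATAAA and the octamer are on the opposite strand, that of the H2B gene HIST1H2BG. The start of HIST1H2BG lies 233 bases away, so these matches cannot be assigned to the H2A gene. In the window of HIST1H2BK, the TATAAA matches that begin 223 and 221 bases before the start lie on the side of the neighbouring H2A gene HIST1H2AH. These matches cannot be assigned to HIST1H2BK either.
HIST1H1C chr6:26056421-26056720 (minus strand): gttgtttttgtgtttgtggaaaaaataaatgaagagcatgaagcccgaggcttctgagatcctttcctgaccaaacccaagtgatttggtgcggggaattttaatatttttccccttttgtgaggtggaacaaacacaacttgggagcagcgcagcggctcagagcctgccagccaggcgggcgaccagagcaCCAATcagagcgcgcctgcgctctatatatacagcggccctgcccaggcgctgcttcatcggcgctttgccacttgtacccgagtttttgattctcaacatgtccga
HIST1H2AE chr6:26216671-26216970 (plus strand): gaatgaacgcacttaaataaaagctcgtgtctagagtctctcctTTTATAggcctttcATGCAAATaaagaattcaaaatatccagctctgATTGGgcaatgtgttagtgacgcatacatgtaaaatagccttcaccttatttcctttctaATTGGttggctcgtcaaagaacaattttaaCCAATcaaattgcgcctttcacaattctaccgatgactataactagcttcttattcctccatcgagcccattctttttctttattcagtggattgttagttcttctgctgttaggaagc
HIST1H2BK chr6:27146809-27147108 (minus strand): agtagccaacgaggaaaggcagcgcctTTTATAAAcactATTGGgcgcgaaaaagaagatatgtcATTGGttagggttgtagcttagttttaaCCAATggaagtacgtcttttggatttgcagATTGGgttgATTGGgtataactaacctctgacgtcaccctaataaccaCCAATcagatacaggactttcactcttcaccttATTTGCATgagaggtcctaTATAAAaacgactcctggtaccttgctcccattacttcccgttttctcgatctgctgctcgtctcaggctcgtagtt
HIST1H3B chr6:26032050-26032349 (minus strand): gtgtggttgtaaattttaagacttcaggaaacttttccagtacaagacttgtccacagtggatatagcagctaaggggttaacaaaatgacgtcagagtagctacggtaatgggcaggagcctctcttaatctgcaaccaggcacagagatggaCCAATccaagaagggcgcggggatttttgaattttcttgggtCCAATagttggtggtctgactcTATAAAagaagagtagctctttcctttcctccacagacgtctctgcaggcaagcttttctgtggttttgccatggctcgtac
HIST1H4J chr6:27823842-27824141 (plus strand): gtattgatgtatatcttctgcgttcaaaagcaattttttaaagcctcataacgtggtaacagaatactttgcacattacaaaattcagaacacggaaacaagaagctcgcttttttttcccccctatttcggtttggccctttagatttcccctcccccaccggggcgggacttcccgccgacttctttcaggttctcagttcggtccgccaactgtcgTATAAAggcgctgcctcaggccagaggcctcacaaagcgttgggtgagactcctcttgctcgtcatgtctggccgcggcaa
HIST3H2A chr1:228457824-228458123 (minus strand): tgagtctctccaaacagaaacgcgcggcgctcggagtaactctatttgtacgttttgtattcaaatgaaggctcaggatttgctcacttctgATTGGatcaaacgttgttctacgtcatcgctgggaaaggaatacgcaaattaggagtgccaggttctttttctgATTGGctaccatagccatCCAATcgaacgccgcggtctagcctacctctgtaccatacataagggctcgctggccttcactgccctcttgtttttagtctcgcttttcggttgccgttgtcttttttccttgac

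A promoter window was matched for 58 of the 72 members. CCAAT occurred in 49 of the 58 windows (84.5%), against 35.7% of 27305 RefSeq promoters of the same length. All 5 windows of H1, 14 of H2A, 17 of H2B and 12 of H3 held it, while 1 of the 10 windows of H4 did, as the sequence of HIST1H4J above shows. TATAAA was present in 37 windows (63.8%, against 11.95% of all promoters). The octamer was present in 23 windows (39.7%, against 1.80%), which were 13 of H2B, 9 of H2A and 1 of H3. Windows of neighbouring H2A and H2B genes that start back to back, 9 pairs described below, overlap. A motif there can be counted for both genes, so these windows are not separate promoters. The H2B genes with the octamer had a median of 59.4 FPKM with anti-IMP1 and 12.3 FPKM with IgG, and the 4 without it had 95.3 and 55.7 FPKM. A match describes letters in a window, not a bound site.

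The family was higher in the anti-IMP1 precipitate. Its values summed to 5512 FPKM with anti-IMP1 and to 1876 FPKM with IgG, a ratio of 2.94, and the median member had 64.0 and 12.8 FPKM. Of all FPKM in a library the family made up 1.56% with anti-IMP1 and 0.144% with IgG. Without the mitochondrial ribosomal RNAs, which took 37.7% of the anti-IMP1 sum and 52.5% of the IgG sum, the family made up 2.50% and 0.304%. Among the 200 genes with the highest level there were 20 members with anti-IMP1 and 1 with IgG, and among the 500 highest there were 42 and 8.

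Gene by gene, the libraries were compared as the log2 ratio of FPKM + 0.1, anti-IMP1 over IgG, a scale that understates the difference of low genes. At least 2-fold higher with anti-IMP1 were 56 of the 72 members, in a table where 39.9% of all genes were, and at least 2-fold lower was 1 member, where 29.9% of all genes were. The remaining 15 lay within 2-fold. The median log2 ratio was 2.16 over the members and 0.40 over all genes. A zero with IgG weighs on these counts: 26 members were listed at 0 there (38.7% of all genes were), and no member was listed at 0 with anti-IMP1. Over the 46 members above 0 in both libraries the median was 1.45, against -0.72 over all such genes. Of the 45 members with at least 1 FPKM in both, 29 were at least 2-fold higher and 1 was at least 2-fold lower, where 11.5% and 44.0% of such genes were. These counts rest on the contrast that brought the family into view.

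**Figure D1:**
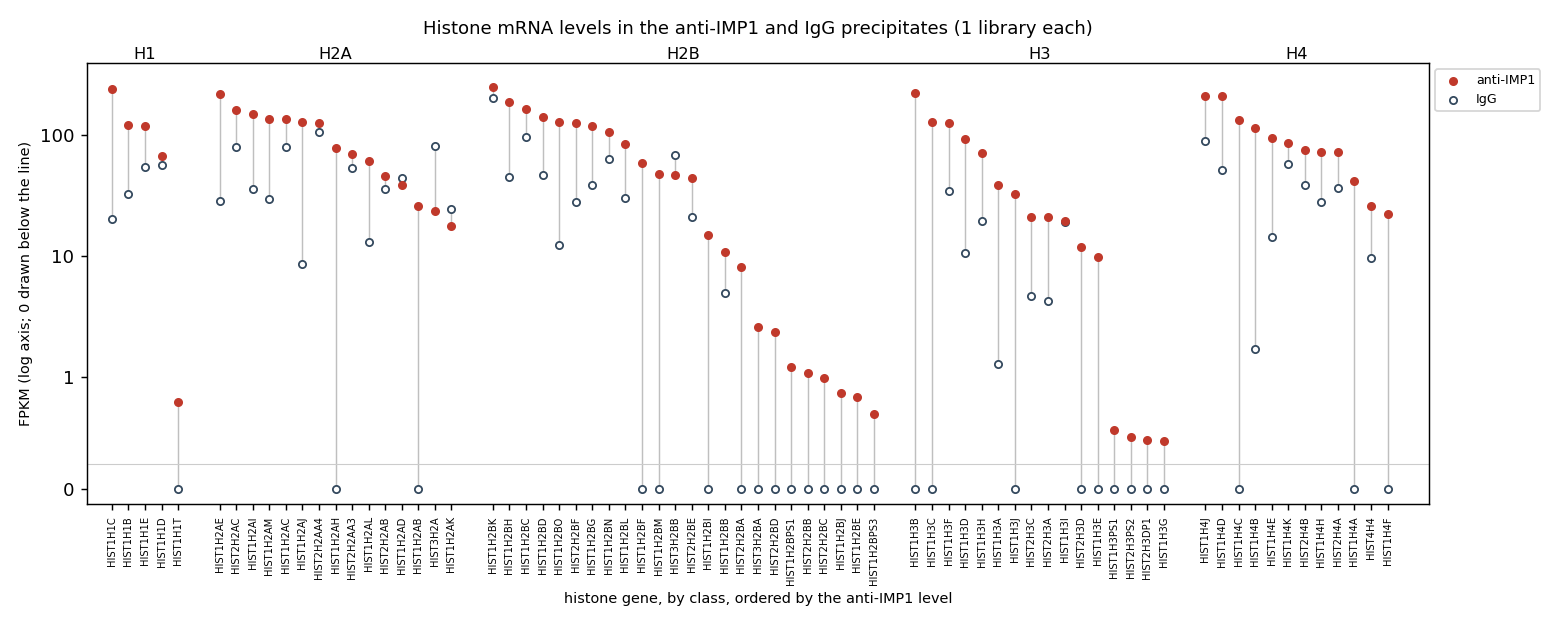
Level of each of the 72 histone genes in FPKM (log axis, 0 drawn under the grey line) in the anti-IMP1 library (filled) and in the IgG library (open), by class and ordered by the anti-IMP1 level, with 1 library each and no error bars. The anti-IMP1 point is the higher one in 68 of the 72 genes, where 10790 of all 18781 genes were higher with anti-IMP1. Zeros are 26 open points, where 38.7% of all genes were listed at 0 with IgG (HIST1H3J, given as 1.4e-05 FPKM with IgG, is drawn with them).

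Of the linker histones, HIST1H1C had 244 FPKM with anti-IMP1 against 20.3 FPKM with IgG (log2 ratio 3.58). HIST1H1B had 122 and 32.6 FPKM (1.90), and HIST1H1E had 120.1 and 55.3 FPKM (1.12). HIST1H1D was nearly level between the precipitates, with 67.2 and 56.7 FPKM (0.24). HIST1H1T, the linker histone of the testis, was the low member of the class, with 0.623 FPKM with anti-IMP1 and a listing at 0 with IgG. The order of the 4 somatic genes was thus reversed between the libraries, HIST1H1C being the highest with anti-IMP1 and the lowest above 0 with IgG. Summed, H1 had 553 and 165 FPKM, a ratio of 3.36.

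In H2A, which pairs with H2B in the nucleosome, the difference was the smallest by sum, 1428 against 624 FPKM or a ratio of 2.29. At least 2-fold higher were 8 of 15 genes, 6 lay within 2-fold and 1 was at least 2-fold lower. Of all genes 39.9% were at least 2-fold higher and 29.9% at least 2-fold lower. Among genes with spans of up to 1 kb, 54.6% were at least 2-fold higher, near the share of H2A. HIST1H2AE was the highest, with 218 FPKM with anti-IMP1 and 28.8 FPKM with IgG (log2 ratio 2.92). HIST2H2AC had 164 and 79.9 FPKM (1.03), and HIST1H2AI had 152 and 36.1 FPKM (2.07). HIST1H2AH and HIST1H2AB had 78.1 and 26.2 FPKM with anti-IMP1 and were listed at 0 with IgG. At the other end stood the 3 H2A genes that were lower with anti-IMP1. HIST3H2A had 23.8 FPKM with anti-IMP1 and 81.1 FPKM with IgG (-1.77), HIST1H2AK had 17.8 and 24.9 FPKM (-0.48), and HIST1H2AD had 39.2 and 44.4 FPKM (-0.18). The 15 genes spanned 17.8 to 218 FPKM with anti-IMP1, and the 13 above 0 with IgG spanned 8.65 to 108 FPKM there.

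H2B held the highest member of the family in both libraries. HIST1H2BK had 251 FPKM with anti-IMP1 against 203 FPKM with IgG (log2 ratio 0.31). It was the 1 member among the 200 highest genes of the IgG library. HIST1H2BH had 190.3 and 45.6 FPKM (2.06), and HIST1H2BC had 164 and 97.4 FPKM (0.75). HIST1H2BF and HIST1H2BM, at 59.4 and 48.0 FPKM with anti-IMP1, were listed at 0 with IgG. HIST3H2BB was the only H2B gene lower with anti-IMP1, at 47.5 FPKM against 68.9 FPKM (-0.53). The class also held 7 pseudogenes, with 0.50 to 8.15 FPKM with anti-IMP1 and 0 with IgG, and these are 7 of its 20 genes at least 2-fold higher. Among its 17 protein-coding genes 13 were at least 2-fold higher, where 39.9% of all genes were. The protein-coding genes spanned 0.688 to 251 FPKM with anti-IMP1, and the class summed to 1559 and 662 FPKM, a ratio of 2.35.

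H3 stood apart by its low level with IgG. Its 16 genes summed to 803 FPKM with anti-IMP1 and to 94.5 FPKM with IgG, a ratio of 8.5. Of them 15 were at least 2-fold higher, 13 of 14 without the pseudogenes, where 39.9% of all genes were. HIST1H3B, the highest, had 225 FPKM with anti-IMP1 and was listed at 0 with IgG. HIST1H3C had 128 FPKM and was also listed at 0. HIST1H3F, the H3 gene with the highest IgG level, had 127 and 34.9 FPKM (log2 ratio 1.86), and HIST1H3H had 71.0 and 19.6 FPKM (1.85). HIST1H3I was level, with 19.7 and 19.1 FPKM (0.04), and was the single H3 gene within 2-fold. HIST1H3J had 33.0 FPKM with anti-IMP1, and its value of 1.4e-05 FPKM with IgG is so near the written zero that no ratio is given. Listed at 0 with IgG were 8 of the 16 genes, where 38.7% of all genes were. Of these 8, 3 had at least 10 FPKM with anti-IMP1.

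H4, the partner of H3 in the nucleosome, differed less than H3. Its 12 genes summed to 1168 and 330 FPKM, a ratio of 3.54, and 9 were at least 2-fold higher, where 39.9% of all genes were. HIST1H4J had 213 FPKM with anti-IMP1 and 89.3 FPKM with IgG (log2 ratio 1.25), and HIST1H4D had 211 and 51.9 FPKM (2.02). HIST1H4C had 134 FPKM and HIST1H4A 42.2 FPKM with anti-IMP1, and both were listed at 0 with IgG. HIST1H4B, chosen after its values were seen, had 115 and 1.70 FPKM (log2 ratio 6.0). The smallest ratios of the class were those of HIST1H4K, with 86.4 and 58.4 FPKM (0.56), and of HIST2H4B, with 76.4 and 39.1 FPKM (0.96). No H4 gene was lower with anti-IMP1, and the lowest there was HIST1H4F with 22.5 FPKM.

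The make-up of the family thus differed between the precipitates. H3 made up 14.6% of the family sum with anti-IMP1 and 5.04% with IgG, and H4 made up 21.2% and 17.6%. H2A and H2B took the larger shares with IgG, at 33.3% and 35.3%, against 25.9% and 28.3% with anti-IMP1. H1 had 10.0% and 8.79%. The sum of H4 over that of H3 was 1.45 with anti-IMP1 and 3.49 with IgG, while the sum of H2A over that of H2B was alike, 0.916 and 0.943. The 10 highest members took 36.9% of the family sum with anti-IMP1 and 49.5% with IgG, and 4 genes were among the 10 highest of both. Across the 45 members that reached 1 FPKM with both antibodies, log2 levels had a Pearson correlation of 0.45 and a Spearman correlation of 0.40, a description over genes that share both libraries.

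**Figure D2:**
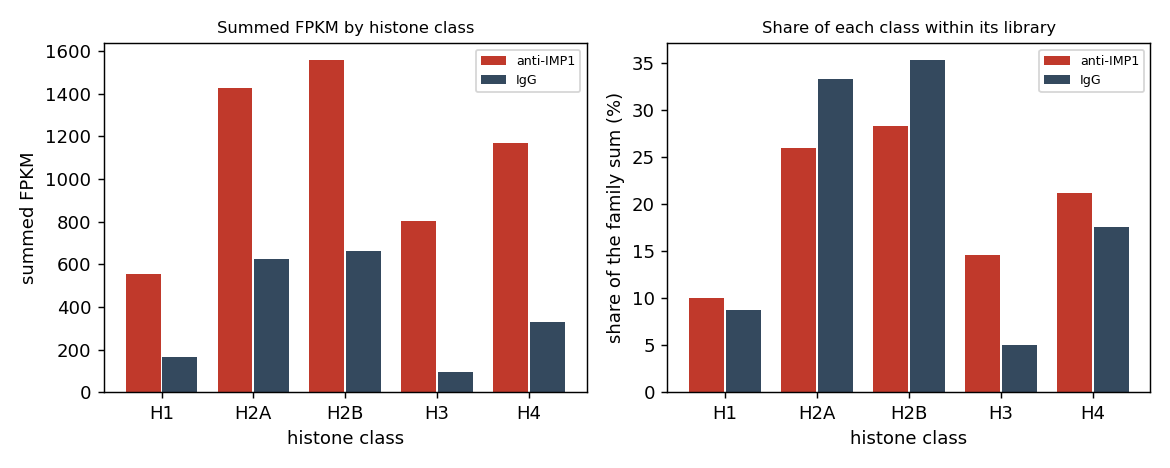
Left, summed FPKM of each histone class in the anti-IMP1 and the IgG library; right, the share of each class in the family sum of its own library, in percent; 1 library each, so no error bars. The anti-IMP1 bar is the taller one in every class on the left, and on the right H3 goes from 5.04% with IgG to 14.6% with anti-IMP1 while H2A and H2B go down.

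The zeros with IgG were not all at low genes. Of the 26 members listed at 0 there, 9 had under 1 FPKM with anti-IMP1, 6 had from 1 to 10 FPKM and 11 had at least 10 FPKM. The 11 were HIST1H3B, HIST1H4C, HIST1H3C, HIST1H2AH, HIST1H2BF, HIST1H2BM, HIST1H4A, HIST1H2AB, HIST1H4F, HIST1H2BI and HIST2H3D, with 11.99 to 225 FPKM. Members with at least 10 FPKM with anti-IMP1 numbered 57, so these were 11 of 57 (19.3%). Of all genes of that level, 118 of 2197 (5.37%) were listed at 0 with IgG, and of the other genes of that level with spans of up to 1 kb, as most members have, 12 of 57 (21.1%) were. The members here include some with longer spans, so their share and that of the other short genes are not over like sets. The level that sets these groups is that of the library in which the family is high. All 9 pseudogenes were listed at 0 with IgG, where 38.7% of all genes were, and summed to 17.6 FPKM with anti-IMP1. Each had 0.306 to 8.15 FPKM with anti-IMP1, under the 10 FPKM of the shares above. Of the 63 protein-coding genes, 57 had at least 10 FPKM with anti-IMP1 and 5 had under 1 FPKM.

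Histone genes sit in clusters, and members on 1 chromosome less than 250 kb apart were put in the same one. Positions are those of the deposited table, which fit GRCh37 (hg19). This gave 10 places, of which 3 hold a single gene: HIST4H4 on chromosome 12, HIST1H2BPS3 on chromosome 13 and HIST1H2BPS1 on chromosome 6. The largest cluster lies on chromosome 6 from 26020718 to 26322520 and holds 31 members. It summed to 2874 FPKM with anti-IMP1 and to 663 FPKM with IgG, a ratio of 4.34. Of its members 27 were at least 2-fold higher, where 39.9% of all genes were. The next on chromosome 6, from 27775257 to 27861669, holds 15 members and summed to 1410.5 and 438 FPKM, a ratio of 3.22. A cluster of 3 genes between them, from 27093676 to 27115317, holds HIST1H2BK and summed to 330 and 203 FPKM, a ratio of 1.63.

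On chromosome 1, the HIST2 cluster, from 149754227 to 149872351 with 13 members, summed to 786 and 412 FPKM, a ratio of 1.91. Of its members 8 were at least 2-fold higher, where 39.9% of all genes were. The HIST3 cluster, from 228645065 to 228652327 with 3 members, went the other way on the deposited scale, with 73.9 FPKM with anti-IMP1 and 150.0 FPKM with IgG, a ratio of 0.493, which became 0.855 with the median gene at a ratio of 1 and 1.81 with equal library sums. Its HIST3H2A and HIST3H2BB are 2 of the 4 members lower with anti-IMP1. Another 2 pairs on chromosome 1, from 120876495 to 120935937 and from 149369294 to 149429348, held 3 pseudogenes and HIST2H3PS2, and their 4 genes had 0.306 to 8.15 FPKM with anti-IMP1 and 0 with IgG.

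Class and place were not the same split. The H2A genes of chromosome 6 had a ratio of sums of 3.76 (998 against 265 FPKM), and those of chromosome 1 had 1.20 (431 against 359 FPKM). H3 had 8.75 on chromosome 6 and 6.11 on chromosome 1, so that H3 had the largest ratio in both places. H4 had 4.07 and 1.95, and H2B had 2.43 and 1.99. Within the largest cluster the ratio of sums was 13.3 for H3 and 7.20 for H4, against 2.76 for H2A, 2.99 for H2B and 3.26 for H1. That order did not hold in the second cluster of chromosome 6. There H2A had 4.43, H1 3.73, H2B 3.45, H3 3.20 and H4 2.03.

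In genome order the largest cluster opened with genes that were almost without signal in the IgG library, a boundary drawn after the values were seen. The first 10 members, HIST1H3A to HIST1H1T, summed to 966 FPKM with anti-IMP1 and to 28.2 FPKM with IgG, a ratio of 34.2. The IgG library listed 6 of them at 0, where it listed 38.7% of all genes at 0. All 10 have spans of up to 1 kb, and of all genes with such spans 54.4% were listed at 0 with IgG. The highest IgG level of the 10, 20.3 FPKM, was that of HIST1H1C. The other 21, from HIST1H2BC on, summed to 1907 and 635 FPKM, a ratio of 3.01, with 7 listed at 0 with IgG. The medians with anti-IMP1 were 78.7 FPKM in the first stretch and 93.9 FPKM in the rest, and with IgG they were 0 and 28.8 FPKM. The gap between the stretches in the IgG library is not independent of where the boundary was drawn. Their mix of histone classes also differed, so place and class cannot be told apart here.

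**Figure D3:**
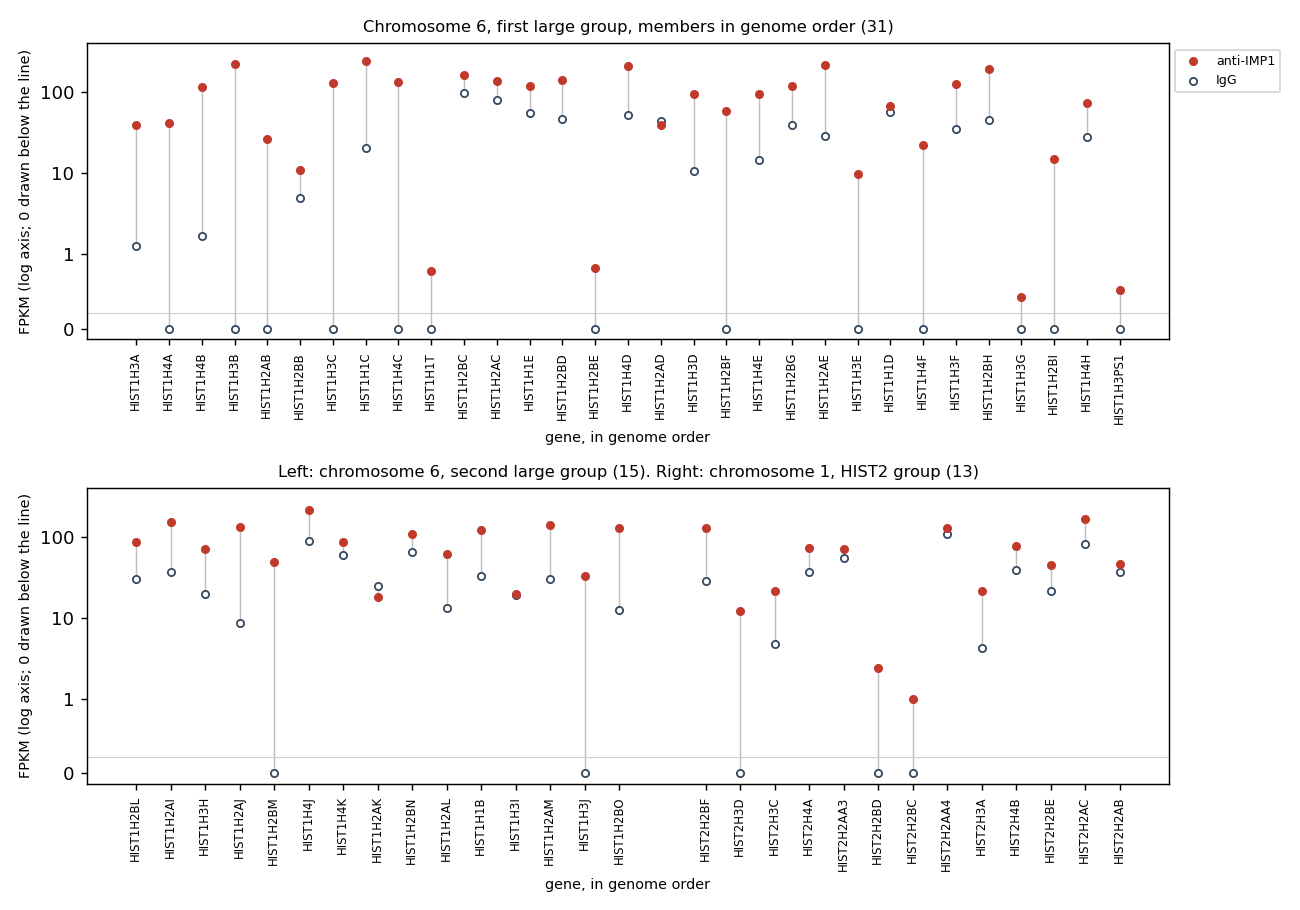
Level in FPKM (log axis, 0 drawn under the grey line) of the histone genes of 3 clusters in genome order, with anti-IMP1 (filled) and IgG (open), 1 library each. Top, the largest cluster of chromosome 6, where the first 10 genes have IgG levels of 0 to 20.3 FPKM; bottom, the 15 genes of the second cluster of chromosome 6 and the 13 of the HIST2 cluster of chromosome 1.

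Other genes of the table within the clusters numbered 9, of which 4 were at least 2-fold higher with anti-IMP1 and 8 were listed at 0 with IgG, where 39.9% and 38.7% of all genes were. Their median level with anti-IMP1 was 0.172 FPKM, against 64.0 FPKM for the histone genes.

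Many H2A and H2B genes start back to back from 1 shared stretch. Among members with a matched promoter window, 9 such pairs had starts 194 to 246 bases apart (RefSeq, GRCh38.p14). HIST1H2AH had no matched window and could not be paired, although its span begins at 27114861, beside the end of HIST1H2BK at 27114619. HIST1H2AH and HIST1H2BK had 78.1 and 251 FPKM with anti-IMP1 and 0 and 203 FPKM with IgG. The levels of the partners lay within 2-fold of each other in 5 of the 9 pairs with anti-IMP1 and in 4 with IgG. HIST1H2AC and HIST1H2BC went together, with 138 and 164 FPKM with anti-IMP1 and 79.7 and 97.4 FPKM with IgG, and their log2 ratios were 0.79 and 0.75. HIST2H2AC and HIST2H2BE differed in level, with 164 and 44.8 FPKM with anti-IMP1, but had log2 ratios of 1.03 and 1.08. HIST3H2A and HIST3H2BB were both lower with anti-IMP1. HIST1H2AK and HIST1H2BN lay in opposite directions on the deposited scale, with 17.8 and 24.9 FPKM for the H2A gene (-0.48) and 106 and 64.1 FPKM for the H2B gene (0.73). In 2 of the 9 pairs 1 partner was listed at 0 with IgG. HIST1H2AD had 39.2 and 44.4 FPKM while HIST1H2BF had 59.4 FPKM and 0, and HIST1H2AJ had 129.5 and 8.65 FPKM while HIST1H2BM had 48.0 FPKM and 0.

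**Figure D4:**
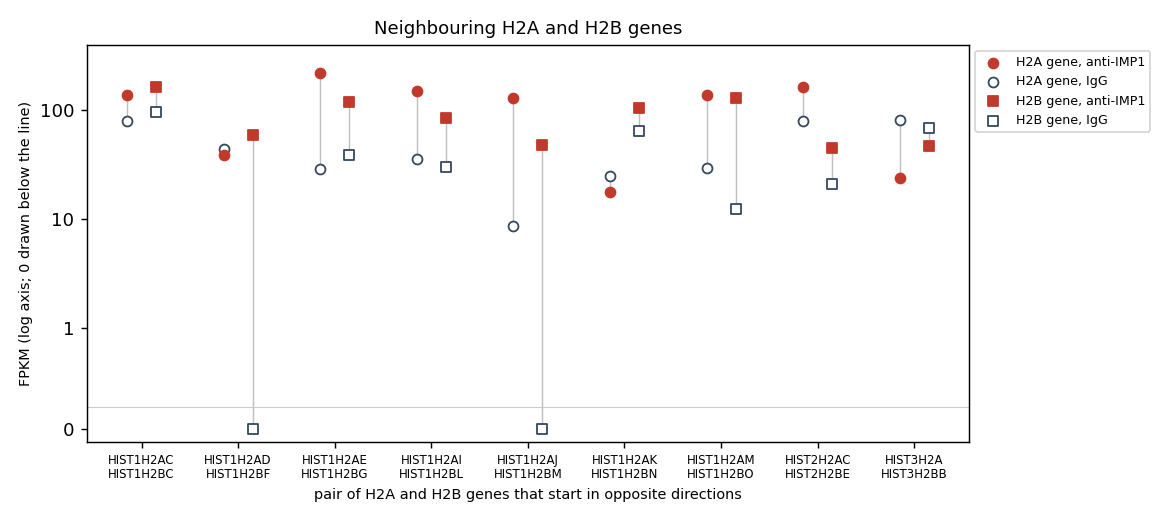
Level in FPKM (log axis, 0 drawn under the grey line) of 9 pairs of H2A (circles) and H2B (squares) genes that start in opposite directions. Filled points are anti-IMP1 and open points IgG, 1 library each, and only genes with a matched promoter window were paired. HIST1H2BF and HIST1H2BM are at 0 with IgG while their partners are not, and in the HIST3 pair both open points lie above the filled ones.

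Some of these values are less certain than others. HIST2H4A and HIST2H4B, HIST2H3A and HIST2H3C, and HIST2H2AA3 and HIST2H2AA4 are near-identical copies, so that reads may be split between them. Their values were close within the first pairs, with 72.3 and 76.4 FPKM for HIST2H4A and HIST2H4B and 21.2 FPKM for both HIST2H3A and HIST2H3C with anti-IMP1, and unlike in the last, with 70.9 and 126 FPKM. Histone genes of a class are alike in their coding sequence in general, and how reads that fit several of them were counted is not given in the sources used here. The table gives 1 merged span to genes that overlap, and 10 members share 5 such spans. Those 10 summed to 497 and 170 FPKM, a ratio of 2.92.

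Short genes need few reads for a high FPKM. Spans of up to 1 kb held 47 members, of which 39 were at least 2-fold higher, where 54.6% of the 625 genes with such spans were. These 47 summed to 3731 and 1077 FPKM, a ratio of 3.46. The 25 members in longer spans summed to 1780.1 and 799 FPKM, a ratio of 2.23, and 17 of them were at least 2-fold higher, where 39.4% of genes with longer spans were. Among other genes with spans of up to 1 kb and at least 10 FPKM with anti-IMP1, 57 in number, 15 were at least 2-fold higher and 28 were at least 2-fold lower.

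The 4 members with more signal with IgG depend on the scale of the libraries, whose sums were 353885 FPKM with anti-IMP1 and 1298363 FPKM with IgG. Scaling the anti-IMP1 library so that the median gene of those reaching 1 FPKM with both antibodies has a ratio of 1 adds 0.79 on the log2 scale. HIST3H2A was then still lower (-0.98), while HIST3H2BB (0.26), HIST1H2AK (0.31) and HIST1H2AD (0.61) were higher. With both libraries at the same sum, which adds 1.88, all 4 were higher, from 0.10 for HIST3H2A to 1.69 for HIST1H2AD. Both scalings raise the anti-IMP1 values, so each member that was higher stayed higher.

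The genes listed as replication-independent histones had close sums in both libraries. The 12 genes summed to 392.3 FPKM with anti-IMP1 and to 449 FPKM with IgG, with a median log2 ratio of 0.35, or 0.10 over those above 0 in both libraries. At least 2-fold higher were 4 of the 12 and at least 2-fold lower were 2, against 39.9% and 29.9% of all genes. H2AFZ had 87.5 and 21.2 FPKM (2.04), H2AFJ had 38.4 and 12.1 FPKM (1.66), and CENPA, the histone of the centromere, had 4.03 FPKM with anti-IMP1 and a listing at 0 with IgG. H3F3C had 0.122 and 0 FPKM. At least 2-fold lower were H1F0, a linker histone of cells that no longer divide, with 14.1 and 82.5 FPKM (-2.54), and H2AFY, encoding macroH2A, with 26.7 and 68.0 FPKM (-1.34). H3F3A had 76.4 and 82.0 FPKM, H3F3B had 68.6 and 121 FPKM, H2AFX had 36.0 and 27.1 FPKM, and H2AFV had 24.8 and 20.2 FPKM. H2AFY2 had 4.30 and 7.37 FPKM, and H1FX had 11.2 and 8.25 FPKM. With the median gene at a ratio of 1 the median of the 12 was 1.15, and with equal sums it was 2.23, against 2.91 and 3.98 for the replication-dependent genes.

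Genes that act on histone mRNAs were taken next. Of 22 genes of 3′ end processing and turnover, 8 (36.4%) were at least 2-fold higher and 9 (40.9%) were at least 2-fold lower, where 39.9% and 29.9% of all genes were, with a median log2 ratio of -0.49, which was 0.28 with the median gene at a ratio of 1 and 1.35 with equal sums. SLBP, the stem-loop binding protein, had 7.51 and 14.6 FPKM (-0.95). Of the U7 snRNP, LSM10 had 5.94 and 13.3 FPKM (-1.15) and LSM11 had 0.177 FPKM with anti-IMP1 and 0 with IgG. The Sm proteins split, SNRPG at 42.2 and 11.8 FPKM (1.83) and SNRPB at 44.5 and 26.9 FPKM (0.73), but SNRPD3, SNRPE and SNRPF at -1.06, -1.23 and -1.33. The cleavage factors CPSF2 and CPSF3 had -0.999 and -1.44, CSTF2 had -0.04, and SYMPK had 1.90 FPKM and 0. The cap-binding genes had 14.03 and 48.4 FPKM for NCBP2 (-1.78) and 0.765 FPKM and 0 for NCBP1, and their partner SRRT had 2.80 and 0.653 FPKM (1.95). Of the decay factors, ZCCHC6 had 0.299 and 4.56 FPKM (-3.54), ZCCHC11 had -1.31, UPF1 had -1.03, and ERI1, the nuclease that trims the stem-loop, had 1.24 FPKM with anti-IMP1 and 0 with IgG. ZNF473 had 1.83 FPKM and 0, CASP8AP2 had 0.950 and 0.0838 FPKM (2.51), and MIF4GD, a partner of SLBP in translation, had 11.9 and 9.29 FPKM (0.35).

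Of the 7 regulators of histone gene transcription, 4 were at least 2-fold higher and 1 was lower, where 39.9% and 29.9% of all genes were. NPAT, the coactivator of histone genes at S phase entry, had 1.60 and 6.30 FPKM (-1.91). HINFP, a factor of the H4 promoters, had 2.37 and 0.968 FPKM (1.21), and POU2F1 had 0.549 and 0.780 FPKM (-0.44). CDK2, the kinase that acts on NPAT, had 7.58 and 0.686 FPKM (3.29), and E2F1 had 3.73 and 0.0878 FPKM (4.35). CCNE1 had 0.324 FPKM and 0, and CCNE2 had 5.91 and 6.35 FPKM (-0.10).

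The histone chaperones, which carry histone proteins to and from DNA, were read in the same way. Of 17 genes 3 were at least 2-fold higher and 8 at least 2-fold lower on the deposited scale, with a median log2 ratio of -0.50, which was 0.29 with the median gene at a ratio of 1 and 1.37 with equal sums. Of the 13 that reached 1 FPKM with both antibodies, 1 was higher and 6 were lower, near the 11.5% and 44.0% of all such genes. The 3 were HIRA with 1.48 FPKM and HJURP, the chaperone of CENPA, with 3.95 FPKM, both listed at 0 with IgG, and ASF1B with 5.64 and 2.73 FPKM (1.02). ATRX had 0.344 and 12.4 FPKM (-4.81), the most negative ratio of the list. CHAF1A (-2.21), CABIN1 (-2.20), NAP1L4 (-2.09), ASF1A (-1.93), UBN1 (-1.57), NAP1L1 (-1.32) and NASP (-1.23) were also at least 2-fold lower. RBBP4 (-0.50), SUPT16H (-0.47), DAXX (0.01), IPO4 (0.11), CHAF1B (0.28) and SSRP1 (0.35) lay within 2-fold.

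Histone mRNAs peak in S phase, and 13 other genes of that phase were read beside them. Of these 7 were at least 2-fold higher and 1 was at least 2-fold lower, against 39.9% and 29.9% of all genes, with a median log2 ratio of 2.31, or 0.67 over those above 0 in both libraries. Thymidylate synthase, TYMS, had 5.95 FPKM with anti-IMP1 and 0 with IgG, and MCM2, MCM5 and MCM6 of the replicative helicase had 4.02, 4.34 and 1.39 FPKM and 0. TK1 had 28.6 and 5.68 FPKM (2.31), MCM3 had 4.62 and 0.118 FPKM (4.43), and CDT1 had 6.96 and 1.05 FPKM (2.62). PCNA, the sliding clamp, had 41.0 and 21.8 FPKM (0.91), and RRM2 had 26.7 and 16.7 FPKM (0.67). The others were MCM4 (-0.28), MCM7 (-0.22), CDC6 (-0.97) and RRM1, with 10.3 and 23.7 FPKM (-1.19). The part of these differences in the histone values was not tested.

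**Figure D5:**
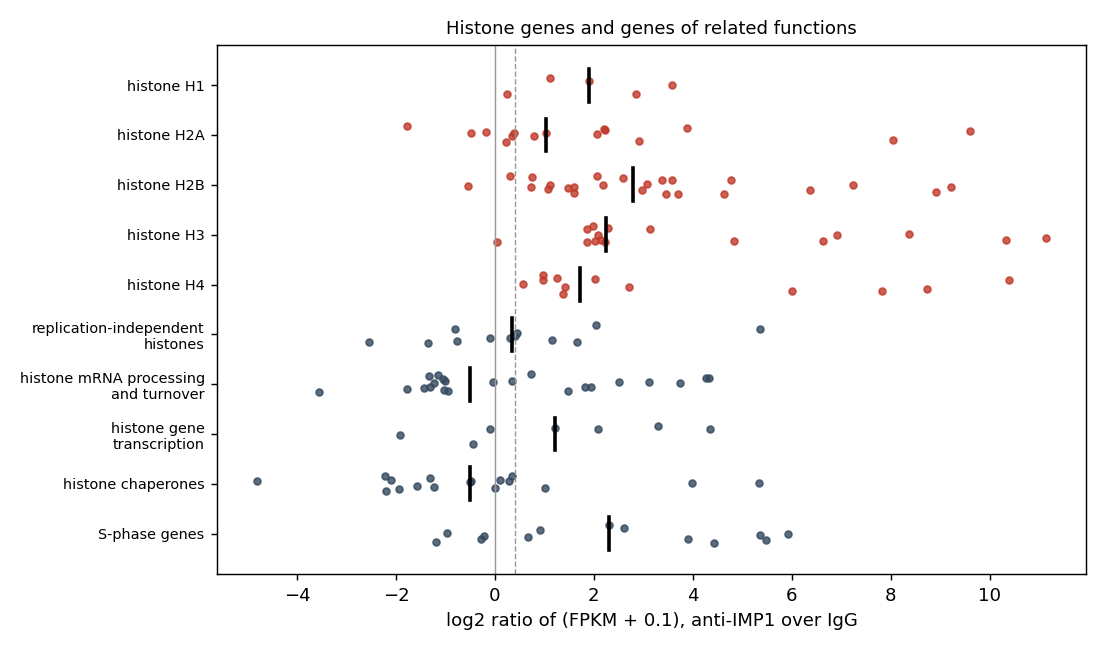
Log2 ratio of (FPKM + 0.1), anti-IMP1 over IgG, of the histone genes by class (red) and of 5 gene lists of related function (blue), with a dot per gene and a black bar at the median; the solid line is at 0 and the dashed line at the median of all genes, 0.40. The 5 histone classes have medians from 1.03 (H2A) to 2.78 (H2B). Over protein-coding genes alone the median is 1.60 for H2B and 2.71 for H3. The processing genes and chaperones have -0.49 and -0.50 on this scale (0.28 and 0.29 with the median gene at a ratio of 1). Genes far to the right are at 0 with IgG.

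The libraries also differed in genes that mark cell types. All 10 markers of luminal breast epithelium, the origin of T47D, were above 0 in both libraries. They summed to 1244 FPKM with anti-IMP1 and to 571 FPKM with IgG. Of the 10, 5 were at least 2-fold higher with anti-IMP1, where 39.9% of all genes were. KRT8, KRT18, KRT19, ESR1, PGR, GATA3, FOXA1, XBP1, CDH1 and EPCAM had 9.60 to 371 FPKM with anti-IMP1 and 9.04 to 226 FPKM with IgG. All 8 markers of mesenchymal cells were at least 2-fold lower with anti-IMP1, where 29.9% of all genes were, with sums of 2.61 and 191 FPKM. COL1A2, LUM, SPARC and ZEB2 were listed at 0 with anti-IMP1 and had 2.96 to 22.0 FPKM with IgG, and VIM, COL1A1, COL3A1 and FN1 had 0.0574 to 1.30 FPKM and 15.1 to 79.7 FPKM. The part of this difference in the histone values was not tested. Of the list of testis and germline histones, HIST1H1T was the one analysed here.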

How the data were processed

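RNA from 2 T47D immunoprecipitates, 1 with an anti-IMP1 antibody and 1 with normal IgG, was sequenced, and nothing was pooled. The deposited table gives each gene an FPKM value per library, made by the authors, with 1e-05 standing for 0, which was set back to 0. The submitters' processing notes name the build hg19, and the aligner, the software behind the FPKM and the annotation release are not given in the sources used here. The deposited table also holds the authors' fold change, p-value and q-value, which were not used, as were 3 shorter tables of genes picked by them. The FPKM values give no read counts, so the depth is unknown and no interval or floor is given.

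From the FPKM values, the log2 ratio of (FPKM + 0.1), anti-IMP1 over IgG, was computed for all 18781 genes, and members past 2-fold were counted beside all genes. No test was run, because 1 library per antibody leaves no replicate error. Starts were raised by 1, since the table counts them from 0. Biotypes, promoters and gene starts came from RefSeq (GRCh38.p14). The members and gene lists were chosen with earlier results of these data known. Named by rule were, in each class, the 3 members highest with anti-IMP1, the 2 with the largest and the 2 with the smallest ratio among those with at least 1 FPKM in a library, every member lower with anti-IMP1, and the genes of the lists. Other members named were chosen after their values were seen. Alternatives were pseudocounts of 1 and 0.01, filters on low values, 2 rescalings, a 4-fold threshold, spans of up to 1 kb and, chosen after seeing the data, leaving out pseudogenes. The counting was tested on simulated data. Python 3.11.15, numpy 2.4.6, pandas 2.3.3 and matplotlib 3.10.9 were used.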

Additional observations from a re-analysis of the deposited data

How the results depend on the processing

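No paired analysis was possible because each antibody has 1 library and no test was run, and no replicate could be left out. The 56 members at least 2-fold higher became 30 when a gene had to be above 0 in both libraries, by construction, since 26 members were listed at 0 with IgG, and H2B went from 20 to 8 and H3 from 15 to 7. Without pseudogenes, H2B went to 13. With a 4-fold threshold H1 went from 4 to 2, and with equal library sums H2A went from 8 to 14. The 1 member at least 2-fold lower became 0 with the 4-fold threshold, with the median gene at a ratio of 1 and with equal sums. The median log2 ratio of the members, 2.16, was 1.57 with a pseudocount of 1, 2.26 with 0.01, 2.19 with at least 0.5 FPKM in a library, 1.45 above 0 in both, 2.91 with the median gene at a ratio of 1, 3.98 with equal sums, 2.59 in spans of up to 1 kb and 2.06 without pseudogenes. The summed log2 ratio, 1.55, was 2.35 and 3.43 under those rescalings. The median of the replication-independent histones, 0.35, was 0.23, 0.36, 0.30, 0.10, 1.15 and 2.23 under the first 6 of those settings. The other counts stayed within 1.5 times, and none of these values turned its direction. With a pseudocount of 1, 65.3% of members and 17.4% of all genes were at least 2-fold higher, and with equal sums 98.6% and 63.7%.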
